A study of Homo sapiens with 8 samples.

Results

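The nuclear genes of oxidative phosphorylation are those that encode the respiratory chain and the ATP synthase of mitochondria. They were chosen by gene symbol alone (NDUFA, NDUFB, NDUFC, NDUFS and NDUFV with a number, SDHA to SDHD, UQCR, CYC1, COX5 to COX8 and ATP5F1, ATP5M or ATP5P), which gave 85 of the 28265 genes in the count tables. Of these, 36 belong to complex I, 4 to complex II, 11 to complex III, 15 to complex IV and 19 to complex V. NDUFA4 was placed in complex IV, where its protein sits, despite its name. The rule also took in UQCRBP1, a pseudogene, and ATP5MF-PTCD1, a readthrough transcript, and it missed COX4I1, CYCS and a few other subunits that are described separately.

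All samples were IMR90, primary human fetal lung fibroblasts, at low passage. The control libraries, labelled young, came from wild type cells without ICM, and the others came from cells given ICM (inflachromene, a small molecule that binds HMGB1 and HMGB2) for 3 days or 6 days. A further condition carries the label MetaICM, which the sources used here do not explain beyond calling those cells treated. Each of the 4 conditions had 2 libraries of factory RNA-Seq, which enriches nascent RNA at sites of transcription, although the labels give a poly(A) selection. The counted pairs lie on exons, so they cannot separate nascent from mature transcripts. Nothing in the labels says that the 2 libraries of a condition came from separate cultures, and p-values measure only the spread between them.

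As background, complex I oxidizes NADH, complex II oxidizes succinate as part of the tricarboxylic acid cycle, complex III passes electrons from ubiquinol to cytochrome c, and complex IV hands them to oxygen. Complexes I, III and IV pump protons across the inner membrane, and complex V uses the returning protons to make ATP. All subunits of complex II and most of the others are encoded in the nucleus, and many of their promoters hold sites for NRF1, GABP (an ETS factor) and YY1. Several subunits have paralogs used in heart and muscle, testis or low oxygen.

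Promoters were read for the members that had an entry in the RefSeq promoter table (build GRCh38.p14), 66 of 85 in all. In windows from 250 bases before to 50 bases after the transcription start, the letters CGCATGCG of an NRF1 site were found in 15.2% of the members' promoters and in 2.19% of all 27305 promoters. The ETS letters CCGGAAG were in 28.8% against 10.7%, and the YY1 letters AAGATGGCG in 12.1% against 1.85%. Both strands were searched. The NRF1 word reads the same on both, and an ETS and a YY1 match can overlap, since they can share the bases AAG. At least 1 of them was present in 30 of the 66 members (45.5%, against 13.7% of all promoters). The median GC content was 61.2% for members and 58.3% for all, while the median count of the dinucleotide CG was 23 against 14. All 3 words contain CG, and the part of this difference in the shares was not tested. The NRF1 letters were found in 4 of 31 complex I promoters and 4 of 13 complex V promoters, and in 0 of 7 complex III promoters. The ETS letters were in 5 of 31, 3 of 7, 4 of 12 and 5 of 13 promoters of complexes I, III, IV and V.

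Shown here are the 250 bases before the start of 5 members with the changes described below, 5′ to 3′ along the gene, with the NRF1 or ETS letters in capitals. NDUFB4 was the member with the highest log2FC after 3 and after 6 days of ICM, NDUFS3 was called after 3 days, NDUFB7 and NDUFS6 were called in MetaICM, and ATP5MC1, called at 6 days, holds none of the 3 words in this window. NDUFA2, NDUFA3, UQCR10, COX6B2 and COX7A2, whose changes are also described below, held none of the 3 words in this window and are not shown. The share of words among the members shown is therefore not that of the changed members. All coordinates in this paragraph are GRCh38.p14.
NDUFB4 (chr3:120596086-120596335, plus strand): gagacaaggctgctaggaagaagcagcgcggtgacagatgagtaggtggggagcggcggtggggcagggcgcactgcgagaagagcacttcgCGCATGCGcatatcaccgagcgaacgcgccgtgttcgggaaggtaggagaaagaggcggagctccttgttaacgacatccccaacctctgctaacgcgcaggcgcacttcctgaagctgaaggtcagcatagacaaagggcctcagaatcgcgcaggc
NDUFS3 (chr11:47578824-47579073, plus strand): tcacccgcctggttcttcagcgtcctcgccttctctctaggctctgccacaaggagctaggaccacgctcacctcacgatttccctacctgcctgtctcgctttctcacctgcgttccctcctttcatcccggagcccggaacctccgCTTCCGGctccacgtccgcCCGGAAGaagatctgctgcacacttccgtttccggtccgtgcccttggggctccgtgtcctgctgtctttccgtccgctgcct
NDUFB7 (chr19:14572067-14572316, minus strand): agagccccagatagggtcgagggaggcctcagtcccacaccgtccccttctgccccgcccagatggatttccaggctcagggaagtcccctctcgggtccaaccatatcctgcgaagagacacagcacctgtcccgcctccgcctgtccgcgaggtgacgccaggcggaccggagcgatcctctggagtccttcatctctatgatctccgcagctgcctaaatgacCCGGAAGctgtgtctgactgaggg
NDUFS6 (chr5:1801157-1801406, plus strand): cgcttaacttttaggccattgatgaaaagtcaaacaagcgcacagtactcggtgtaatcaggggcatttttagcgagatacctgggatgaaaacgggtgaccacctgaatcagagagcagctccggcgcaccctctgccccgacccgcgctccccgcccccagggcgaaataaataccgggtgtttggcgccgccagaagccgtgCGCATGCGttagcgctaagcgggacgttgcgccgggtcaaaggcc
ATP5MC1 (chr17:48892537-48892786, plus strand): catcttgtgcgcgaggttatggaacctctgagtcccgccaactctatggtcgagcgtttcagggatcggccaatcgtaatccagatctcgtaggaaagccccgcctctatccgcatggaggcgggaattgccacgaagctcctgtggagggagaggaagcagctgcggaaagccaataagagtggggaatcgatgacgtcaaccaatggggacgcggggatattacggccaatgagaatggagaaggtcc

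In NDUFB4 the NRF1 letters begin 158 bases before the start, and in NDUFS6 they begin 45 bases before it. NDUFS3 holds the ETS letters at 102 and 83 bases before the start, and NDUFB7 holds them 24 bases before it. A match is a description of these letters and no evidence of binding. Among the members called higher after 6 days, 5 of 12 with a promoter held at least 1 word, against 25 of the other 54. In MetaICM the counts were 14 of 24 called members and 16 of the other 42.

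The libraries held 12095123 to 23166405 counted pairs, the fewest in control replicate 2. All 9 fibroblast markers checked, such as COL1A1, VIM and THY1, were detected in every library, at 61.2 to 8710 CPM (counts scaled to a common library size), and 7 markers of epithelium, blood, endothelium and liver stayed at or below 1.29 CPM. The summed CPM of the fibroblast markers was 22600 and 22000 in control, 14100 and 12300 after 3 days, 11000 and 10700 after 6 days and 19500 and 20500 in MetaICM. COL1A1 was the largest part of this sum in control, at a mean of 8400 CPM, and had 1880 CPM after 6 days. COL3A1 had 3080 and 2940 CPM. Of the 9, 6 were called lower after 3 days, 5 after 6 days and 1 in MetaICM, where 1 was called higher. Among all genes tested, 13.2%, 17.2% and 8.99% were called lower, and 7.41% were called higher in MetaICM. The part of this in the results was not tested. Fewer cells of a type and less RNA per cell cannot be told apart in such samples.

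CPM and log2FC compare a gene with the other genes of a library, and RNA per cell was not measured here. The paper reports that labelled nascent RNA in nuclei and nucleoli dropped with ICM treatment. A gene said here to have risen may therefore not have risen per cell, which was not tested. Summed over all members, the relative level was higher in each treated condition than in control. It was 2519 and 2215 CPM in the control libraries, 2982 and 2655 CPM at 3 days of ICM, 2992 and 3015 CPM at 6 days, and 3107 and 3377 CPM in MetaICM. Every treated library lay above both controls, and the means were 1.19, 1.27 and 1.37 times that of control. The share of each complex in this sum was not even, since complex V held 894 ± 112 CPM (SD, n = 2) in control and complex I 774 ± 42.7 CPM, while complexes III, II and IV held 325 ± 36.5, 188 ± 13.6 and 185 ± 10.2 CPM.

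**Figure D1:**
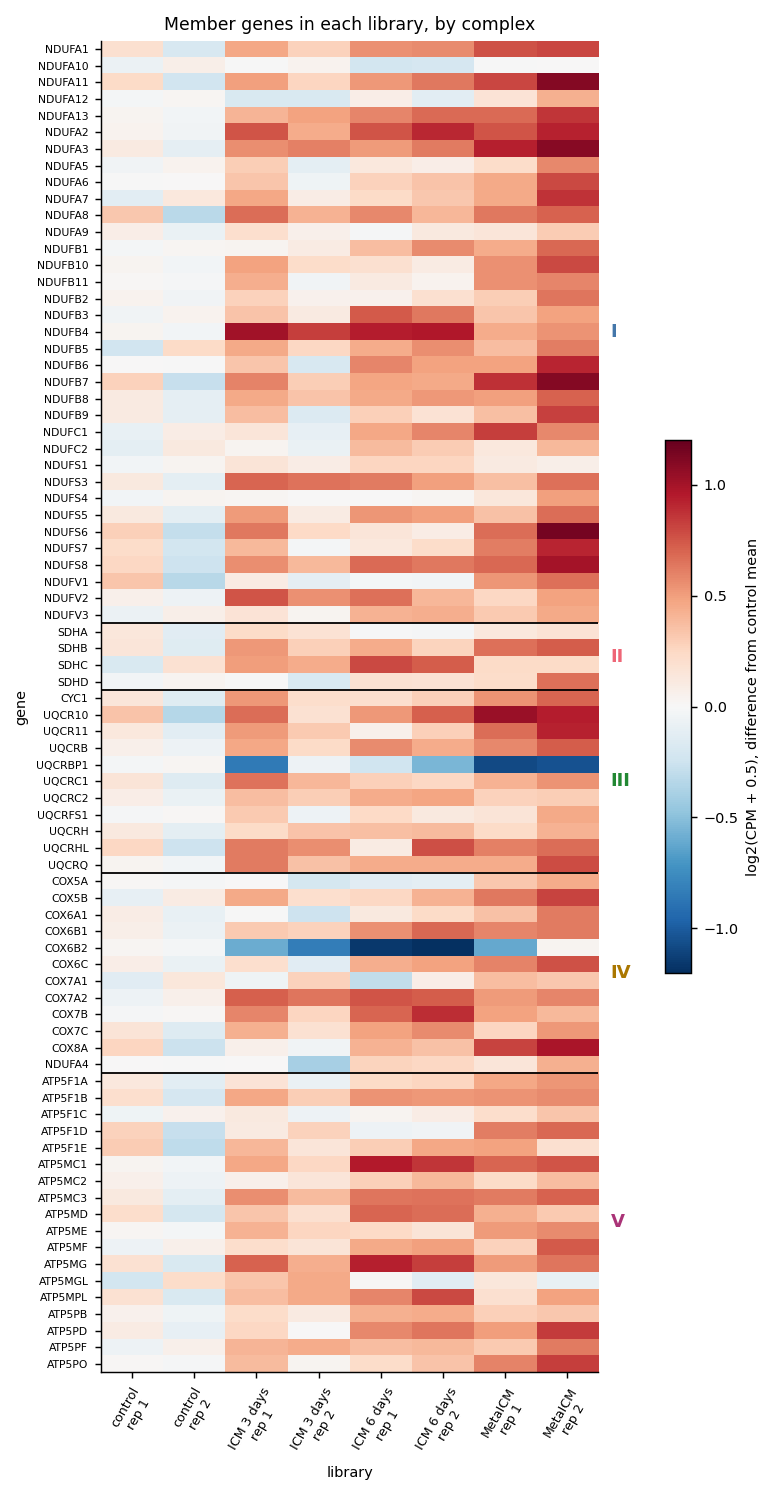
Each row is a tested member (80 are drawn), grouped by complex, and each column 1 of the 8 libraries. Colour gives log2(CPM + 0.5) minus the mean of the control libraries, and the scale ends at 1.2 in both directions, which COX6B2 passes after 6 days of ICM. Over all 81 tested members, the log2FC of MetaICM against control was above 0 in 78, and MetaICM replicate 2 was above replicate 1 in 72.

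Per length, the most abundant member of each complex in control was as follows. ATP5F1B, the catalytic beta subunit of ATP synthase, had 157 ± 31.4 CPM per kilobase of exon (SD, n = 2), and UQCRC1, a core protein of complex III, had 71.0 ± 10.8. The highest of complex I was NDUFS5, an accessory subunit, at 52.3 ± 5.97, that of complex II was SDHA, the flavoprotein, at 46.2 ± 6.05, and that of complex IV was COX8A, the ubiquitous form of a small subunit, at 38.2 ± 9.90. Other members of complexes I, III and V lay among these, such as ATP5F1C at 46.8, NDUFA13 at 45.9 and UQCRC2 at 45.0. The ranges of 1 SD around NDUFS5, SDHA and COX8A overlapped. SDHC had the lowest level per length within complex II, 2.03 ± 0.376, over an annotated exon length of 13474 bases.

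Genes were compared between conditions by the quasi-likelihood method of edgeR and were called when the adjusted p-value was under 0.05 and the absolute log2FC over 0.6. Of the 85 members, 81 could be tested in each comparison with control. COX6A2 and COX7B2, the muscle and testis forms of 2 complex IV subunits, and ATP5MF-PTCD1 were listed with 0 counts in all libraries, and COX8C, another testis form, with 9 counts in all. ATP5MF-PTCD1 shares 100% of its exon bases with other genes, and pairs on several genes were not counted.

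After 3 days of ICM, 4 members rose and 0 fell (81 tested). Among all genes tested, 8.85% were called higher and 13.2% lower, so the share of members that rose (4.94%) was below the background. Their median log2FC was 0.29 beside 0.01 for all genes, 71 of 81 were above 0, and in 46 members (56.8%) both ICM libraries exceeded both controls, against 33.6% of all genes. After 6 days, 14 members rose and 1 fell (17.3% and 1.23%), beside 13.3% and 17.2% of all genes. The median log2FC was 0.36 beside 0.00. In 62 members (76.5%, against 37.0% of all genes) both 6-day libraries lay above both controls.

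In MetaICM, 30 members rose and 1 fell. Here the share that rose, 37.0%, stood beside 7.41% of all genes called higher and 8.99% called lower. The median log2FC was 0.52 beside 0.00 for all genes, 78 of 81 members were above 0, and 75 (92.6%, against 35.6% of all genes) had both libraries above both controls. Members are short genes, with a median exon length of 1072 bases against 3401 for all genes tested. Among all genes with under 2000 exon bases, 12.2% were called higher in MetaICM, 10.2% after 3 days and 14.7% after 6 days.

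**Figure D2:**
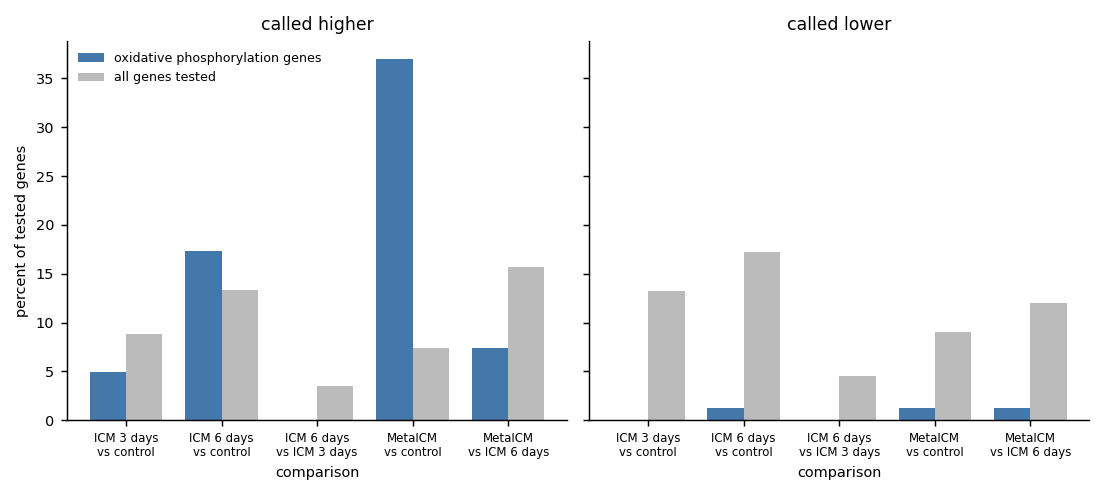
Bars give the percent of tested genes called higher (left) or lower (right) in each of the 5 comparisons, for the oxidative phosphorylation genes and for all genes tested. The members reach 37.0% called higher in MetaICM against control, where all genes reach 7.41%, and at most 1.23% of members were called lower in any comparison.

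These counts depended on single libraries. Control replicate 1 was above control replicate 2 in 56 of 81 members, 3-day replicate 1 was above replicate 2 in 68, and MetaICM replicate 2 was above replicate 1 in 72. Without 3-day replicate 1 only NDUFB4 was called after 3 days, beside 5.28% of all genes called higher, and without control replicate 1 there were 14, beside 11.8%. After 6 days, 26 rose and 1 fell without control replicate 1 (14.8% of all genes higher), and 10 rose without 6-day replicate 2 (10.5%). Without MetaICM replicate 2, 5 members rose in MetaICM (COX8A, NDUFA11, NDUFA3, NDUFB7 and UQCR10), beside 2.86% of all genes called higher, and 40 rose and 1 fell without control replicate 1, beside 12.7%. The median log2FC of the members stayed between 0.17 and 0.38 after 3 days, 0.31 and 0.41 after 6 days, and 0.46 and 0.63 in MetaICM with each library left out in turn.

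COX7A2 and NDUFB4 were called higher after both 3 and 6 days. ATP5MC1, ATP5MC3, NDUFA13, NDUFA2 and NDUFS8 were called both after 6 days and in MetaICM, 9 members after 6 days but not in MetaICM, and 25 in MetaICM but not after 6 days. No member was called in all 3, and all 3 comparisons share the control libraries. Some missed narrowly, such as COX6B1 in MetaICM (log2FC 0.59, adjusted p = 0.00971, edgeR) and ATP5PD after 6 days (0.60, adjusted p = 0.00483). In the direct comparison of MetaICM with 6 days, 0 of those 9 were called lower and 4 of those 25 were called higher (ATP5F1D, NDUFS6, NDUFS7 and UQCR11), so for the others a difference between the conditions was not shown. In total, 41 members were called higher in at least 1 comparison with control, and 37 were tested and never called in any comparison.

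Complex I, the largest of the complexes, had 3 of 36 members higher after 3 days, 5 after 6 days and 16 in MetaICM, with 0 lower in each. The shares higher were 8.33%, 13.9% and 44.4%, beside 8.85%, 13.3% and 7.41% of all genes. Those after 3 and 6 days were thus near the background. The median log2FC of complex I was 0.27, 0.42 and 0.58. NDUFB4, an accessory subunit of the membrane arm, had the highest log2FC of all members at both ICM time points. It had 14.5 and 13.9 CPM in control, 29.0 and 25.7 CPM after 3 days, 27.8 and 28.1 CPM after 6 days, and 19.5 and 20.8 CPM in MetaICM. Thus the ICM libraries were all clear of the controls and MetaICM lay between. Its log2FC came to 0.94 ± 0.16 (SE) at 3 days, with an edgeR adjusted p of 0.000855, and to 0.96 ± 0.14 (SE) at 6 days, with an adjusted p of 0.000343. Against 6 days, MetaICM was lower by a log2FC of −0.48 (adjusted p = 0.000235, edgeR), short of the cutoff of 0.6. NDUFB4 lies on chromosome 3 of hg19 from 120315183 to 120321354, and 12 pseudogenes carry its name, so that its count is uncertain where reads match both.

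The other complex I members called after 3 days were core subunits of the part that takes up NADH and passes its electrons on. NDUFS3 (chromosome 11, 47600626 to 47606114) had 16.4 and 13.8 CPM in control and 24.8 and 23.9 CPM after 3 days, a log2FC of 0.68 (SE 0.16, edgeR adjusted p = 0.00766), which without 3-day replicate 1 was 0.66 at an adjusted p of 0.0708 and without control replicate 2 fell under the cutoff, at 0.56. NDUFV2, which holds an iron-sulfur cluster, had 31.4 and 28.7 CPM in control against 50.9 and 44.2 CPM, a log2FC of 0.65 (adjusted p = 0.00495, edgeR). Both stayed above control in every later library, at log2FC of 0.55 and 0.53 after 6 days and 0.51 and 0.35 in MetaICM, none of which reached the cutoff. NDUFV1, the partner of NDUFV2 that binds FMN, had log2FC of −0.04 and −0.08 at the ICM time points, with overlapping libraries.

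After 6 days NDUFA2, NDUFA13, NDUFB3 and NDUFS8 joined NDUFB4. NDUFA2 (chromosome 5, 140024948 to 140027370) is an accessory subunit of the matrix arm. It had 4.11 and 3.85 CPM in control, 7.07 and 5.58 CPM after 3 days, 7.05 and 7.86 CPM after 6 days, and 7.05 and 8.0 CPM in MetaICM. All treated libraries were above both controls, and the log2FC was 0.89 after 6 days (SE 0.21, edgeR adjusted p = 0.00664) and 0.90 in MetaICM (adjusted p = 0.0102). Without 6-day replicate 2 the 6-day adjusted p was 0.0644. Of its exon bases, 5.15% lie in TMCO6 as well. NDUFS8, which carries iron-sulfur clusters of the electron path, rose by 0.63 (adjusted p = 0.0148, edgeR) and NDUFA13, also known as GRIM-19, by 0.63 (adjusted p = 0.00303), and both rose in MetaICM, by 0.83 and 0.76.

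The 16 complex I members that rose in MetaICM were accessory subunits, as are most members of this complex (NDUFA1, 2, 3, 6, 7, 8, 11 and 13, NDUFB6, 7, 9 and 10, NDUFC1 and NDUFS6), and the core subunits NDUFS7 and NDUFS8. Neither of these core subunits kept its call when a GC curve was removed from each library, as described below. NDUFA3 (chromosome 19, 54606163 to 54610875) had the highest log2FC of all members, 1.07 (SE 0.19, edgeR adjusted p = 0.00395). Its level was 5.06 and 4.26 CPM in control, 7.07 and 7.31 CPM after 3 days, 6.84 and 7.44 CPM after 6 days, and 9.33 and 10.5 CPM in MetaICM. All ICM libraries lay above control and below MetaICM, and 16.6% of its exon bases are shared with TFPT and 5 pseudogenes carry its name. NDUFB7 (chromosome 19, 14676890 to 14682878), which lies on the side of the intermembrane space, had 11.0 and 7.37 CPM in control, 13.9 and 11.2 CPM after 3 days, 12.7 and 12.5 CPM after 6 days, and 17.0 and 19.9 CPM in MetaICM. Its log2FC in MetaICM was 0.97 (SE 0.19, edgeR adjusted p = 0.00574). At the other end, NDUFA10, NDUFA9 and NDUFS1, the large iron-sulfur subunit, had log2FC of −0.02, 0.21 and 0.07 in MetaICM.

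Complex II had few calls. SDHA, the flavoprotein that oxidizes succinate, had 141 and 117 CPM in control, 151 and 145 CPM after 3 days, 128 and 127 CPM after 6 days, and 140 and 145 CPM in MetaICM. Its log2FC against control lay between −0.03 and 0.19 and was never called. SDHB, the iron-sulfur subunit, had 16.5 and 13.4 CPM in control, 21.6 and 18.3 CPM after 3 days, 20.4 and 18 CPM after 6 days, and 23.8 and 24.9 CPM in MetaICM, where it rose by a log2FC of 0.68 (SE 0.15, edgeR adjusted p = 0.00836). This call was lost without MetaICM replicate 2 and without control replicate 2, with adjusted p-values of up to 0.0934 and log2FC down to 0.55.

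SDHC and SDHD are the membrane anchors that hold the ubiquinone site. SDHC had 23.8 and 31.0 CPM in control, 38.7 and 37.2 CPM after 3 days, 47.3 and 45.4 CPM after 6 days, and 32.0 and 32.0 CPM in MetaICM. It rose after 6 days by a log2FC of 0.75 (SE 0.15, edgeR adjusted p = 0.00274), which without control replicate 1 was 0.55 and under the cutoff, and it was 0.21 in MetaICM. Between MetaICM and 6 days the difference was −0.54 (SE 0.08, edgeR adjusted p = 1.12e-05). Part of its exons, 5.74%, overlap CFAP126. SDHD had 16.7 and 17.4 CPM in control and 20.0 and 27.2 CPM in MetaICM, with log2FC of −0.10, 0.17 and 0.46 that were not called. The genes lie on chromosome 5 (SDHA, 218338 to 257197), chromosome 1 (SDHB, 17345221 to 17380527, and SDHC, 161284166 to 161345130) and chromosome 11 (SDHD, 111957597 to 111966518).

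Complex III had 0 of 11 members called at either ICM time point, and 5 higher and 1 lower in MetaICM. In MetaICM these were 45.5% and 9.09%, beside 7.41% and 8.99% of all genes. The medians of complex III were 0.36, 0.36 and 0.60. UQCR10 (chromosome 22, 30163358 to 30166402), a small subunit, had 9.76 and 5.90 CPM in control, 12.4 and 8.71 CPM after 3 days, 11.1 and 12.8 CPM after 6 days, and 16.1 and 15.1 CPM in MetaICM. Only the 3-day libraries overlapped control, and the log2FC in MetaICM was 0.96 (SE 0.21, edgeR adjusted p = 0.00907). It was 0.67 when control replicate 2 was left out and 1.38 when replicate 1 was. CYC1 (cytochrome c1), UQCR11, UQCRB and UQCRQ also rose in MetaICM, by 0.60 to 0.81. UQCRC1 had 126 and 101 CPM in control and 177 and 149 CPM after 3 days, a log2FC of 0.52 (adjusted p = 0.0164, edgeR) that missed the cutoff. UQCRFS1, the Rieske iron-sulfur protein, had log2FC of 0.14, 0.17 and 0.30.

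The member that fell in MetaICM was UQCRBP1 (chromosome X, 56763221 to 56764017), the pseudogene of UQCRB. It had 2.20 and 2.29 CPM in control, 1.02 and 2.13 CPM after 3 days, 1.83 and 1.38 CPM after 6 days, and 0.794 and 0.831 CPM in MetaICM, a log2FC of −1.47 (SE 0.34, edgeR adjusted p = 0.0109). With DESeq2 the adjusted p was 0.0609, and leaving out either MetaICM library gave 0.0858 and 0.0992. UQCRB was called higher in MetaICM, and reads of the pair cannot be assigned with certainty.

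**Figure D3:**
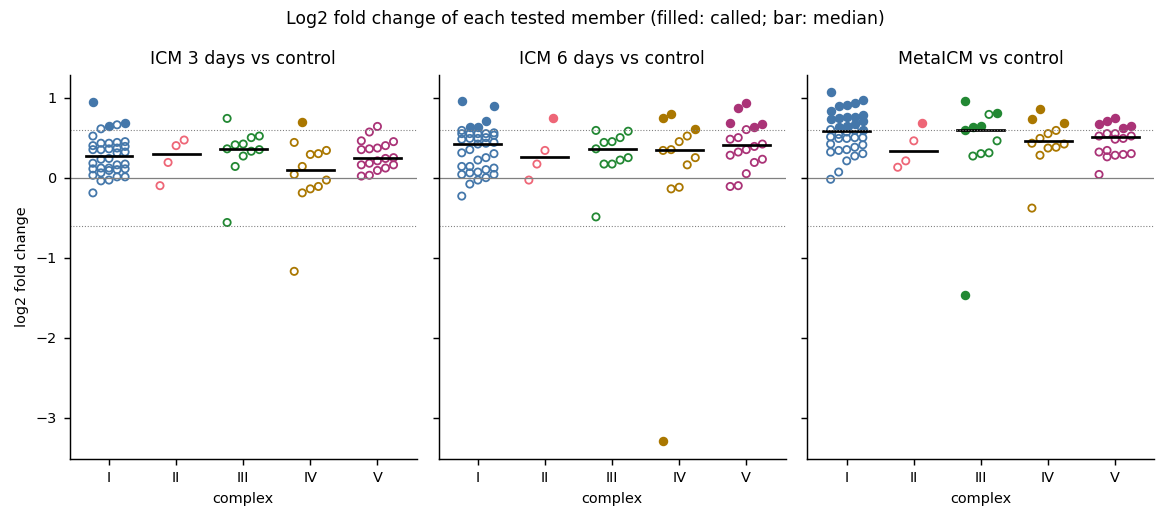
Each circle is the log2FC of 1 tested member against control (y axis), by complex (x axis), after 3 days of ICM, after 6 days and in MetaICM. Filled circles were called, black bars are medians and dotted lines mark 0.6 in both directions. The medians of complexes I to V lie between 0.09 and 0.36 after 3 days and between 0.33 and 0.60 in MetaICM, and the lowest points are COX6B2 and UQCRBP1.

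Complex IV had 1 of 12 tested members higher after 3 days, 3 higher and 1 lower after 6 days, and 3 higher in MetaICM. The shares higher were 8.33%, 25.0% and 25.0%, beside 8.85%, 13.3% and 7.41% of all genes. The share lower after 6 days was 8.33%, beside 17.2%. The median log2FC of complex IV was 0.09, 0.34 and 0.46, the lowest of the complexes after 3 days. COX7A2 (chromosome 6, 75947391 to 75960014), the form used outside heart and muscle, had 16.9 and 18.4 CPM in control, 29.3 and 27.8 CPM after 3 days, 30.0 and 29.5 CPM after 6 days, and 25.4 and 26.7 CPM in MetaICM. All treated libraries were above control. The log2FC was 0.69 after 3 days (SE 0.15, edgeR adjusted p = 0.00538, and 0.0631 without 3-day replicate 1), 0.75 after 6 days (adjusted p = 0.00163) and 0.55 in MetaICM. COX7A1, its heart and muscle form, had 1.67 and 2.13 CPM in control and at most 2.58 CPM in any library, with log2FC of 0.14, −0.12 and 0.42 that were not called.

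Other paralogs of complex IV were also uneven. COX6B1 had 18.3 and 16.5 CPM in control and 25.6 and 28.3 CPM after 6 days, and it rose by a log2FC of 0.61 (adjusted p = 0.00606, edgeR), just past the cutoff. COX6B2 (chromosome 19, 55861073 to 55866087), its testis form, had 1.13 and 1.07 CPM in control, 0.558 and 0.399 CPM after 3 days, 0.215 and 0 CPM after 6 days, and 0.546 and 1.14 CPM in MetaICM. Its 32 control counts stood against 4 after 6 days, a level 10.3-fold lower (95% exact binomial interval from 3.66 to 40.1, which covers counting error only), with an adjusted p of 0.00526 (edgeR) that was 0.0539 without 6-day replicate 2. COX7B rose after 6 days by 0.80 (adjusted p = 0.00151, edgeR), from 15.0 and 15.4 CPM to 24.9 and 28.6 CPM. COX6A1, the form outside muscle, had log2FC of −0.14, 0.16 and 0.49, and NDUFA4 of −0.19, 0.25 and 0.28. COX8A, COX5B and COX6C were those that rose in MetaICM, by 0.86, 0.73 and 0.68. COX8A had 22.3 and 15.4 CPM in control and 32.8 and 37 CPM in MetaICM.

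Complex V had 0 of 18 tested members called after 3 days, and 5 higher both after 6 days and in MetaICM, with medians of 0.25, 0.41 and 0.51. In both conditions the share higher was 27.8%, beside 13.3% and 7.41% of all genes. After 6 days the called members were ATP5MC1, ATP5MC3, ATP5MD, ATP5MG and ATP5MPL, all of the membrane sector, where protons pass. ATP5MC1 (chromosome 17, 46970149 to 46973232), ATP5MC2 and ATP5MC3 encode the same mature subunit c of the rotating ring with different targeting sequences. ATP5MC1 had 9.76 and 9.34 CPM in control, 13.4 and 11.4 CPM after 3 days, 18.9 and 17.7 CPM after 6 days, and 15.8 and 16.5 CPM in MetaICM. It rose by a log2FC of 0.93 after 6 days (SE 0.15, edgeR adjusted p = 0.000899) and by 0.74 in MetaICM (adjusted p = 0.00672), and 8 pseudogenes carry its name. ATP5MC3 rose by 0.63 and 0.65, from 32.0 and 27.0 CPM in control to 46.1 and 46.4 CPM after 6 days. ATP5MC2, at 34.8 and 32.0 CPM in control, had log2FC of 0.32 after 6 days and 0.28 in MetaICM and was not called. Differences in response between the 3 genes were not tested.

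In MetaICM the called members of complex V were ATP5MC1, ATP5MC3, ATP5PD, ATP5PO and ATP5F1D. ATP5PO (OSCP) and ATP5PD belong to the stator stalk, and they rose by 0.71 and 0.67 (adjusted p = 0.00552 and 0.00951, edgeR). ATP5F1B had 316 and 238 CPM in control, 379 and 336 CPM after 3 days, 398 and 393 CPM after 6 days, and 399 and 406 CPM in MetaICM, with log2FC of 0.36, 0.50 and 0.52 that stayed under the cutoff, although adjusted p-values were 0.012 after 6 days and 0.0186 in MetaICM (edgeR). ATP5F1A, the alpha subunit, had log2FC of 0.03, 0.23 and 0.48, and ATP5F1C, the central gamma stalk, 0.02, 0.05 and 0.26. Of the exon bases of ATP5F1E, ATP5PF and ATP5MF, 40.8%, 33.4% and 30.6% are shared with other genes, and none of the 3 was called.

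**Figure D4:**
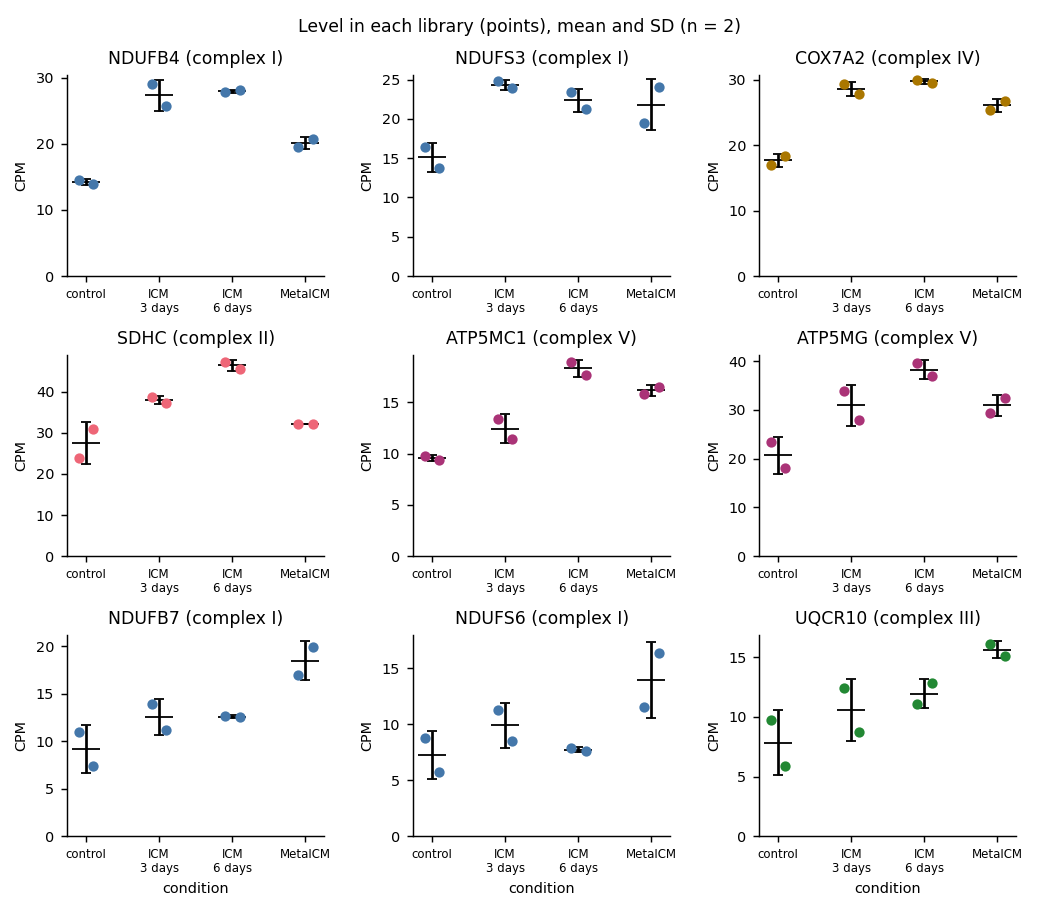
Points give CPM in each library for 9 members in control, after 3 and 6 days of ICM and in MetaICM, with the mean and SD (n = 2) as bars. NDUFB4, COX7A2, SDHC and ATP5MG are highest in ICM libraries, while NDUFB7, NDUFS6 and UQCR10 are highest in MetaICM, where NDUFS6 reads 11.6 and 16.4 CPM.

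Between 6 and 3 days of ICM, 0 of 80 tested members were called in either direction, where 3.53% of all genes were called higher and 4.54% lower. DESeq2 also called 0. At an unadjusted p under 0.05 there were 26 of 80 members, beside 5113 of all 15845 genes tested (edgeR). An adjusted p under 0.05 was reached by 9 members, with a log2FC short of 0.6, and by 3061 of all genes at any log2FC. The median log2FC was 0.09 beside −0.01 for all genes, and by complex it was 0.05, 0.10, 0.02, 0.29 and 0.18 for I to V. ATP5MC1 came nearest to a call, with a log2FC of 0.55 (SE 0.14, edgeR adjusted p = 0.00807). When each library was left out in turn, the count was 4 without 3-day replicate 1 (ATP5MC1, NDUFA4, NDUFB6 and NDUFC1) and 1 without 6-day replicate 1 (COX6B2).

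Between MetaICM and 6 days of ICM, 6 members were higher and 1 lower, below the 15.7% and 12.0% of all genes called. The median log2FC was 0.18 beside 0.01. Higher were NDUFS6, NDUFS7, NDUFV1, UQCR11, ATP5F1D and COX6B2, and lower was UQCRBP1. NDUFS6 (chromosome 5, 1801521 to 1816719), a zinc-binding accessory subunit, had 8.81 and 5.73 CPM in control, 11.3 and 8.51 CPM after 3 days, 7.92 and 7.59 CPM after 6 days, and 11.6 and 16.4 CPM in MetaICM. The MetaICM libraries differed from each other by more than the 6-day ones, and the log2FC of 0.85 (SE 0.16, edgeR adjusted p = 9.73e-05) was 0.58 without MetaICM replicate 2. ATP5F1D (chromosome 19, 1241750 to 1244824), the delta subunit of the central stalk, had 7.75 and 7.91 CPM after 6 days and 12.7 and 13.4 CPM in MetaICM, a log2FC of 0.73 (SE 0.13, edgeR adjusted p = 0.000105). COX6B2 had 4 counts after 6 days and 37 in MetaICM, an 8.04-fold higher level (95% exact interval from 2.89 to 31.1), and without MetaICM replicate 2 its adjusted p was 0.0664. UQCRBP1 (−0.98, adjusted p = 0.0209, edgeR) lost its call with DESeq2, at 0.197. Without MetaICM replicate 2 only ATP5F1D remained called, and without MetaICM replicate 1 the count was 11.

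GC content moved with this comparison. Across the 81 tested members, the log2FC of MetaICM against 6 days had a Pearson r of 0.49 (Spearman rho 0.57) with exon GC content, and across all 16036 genes tested r was 0.28 (rho 0.35). These are correlations across genes of the same libraries, which are not independent replicates. The 6 called higher all lay among the 41 members of higher GC (46.7% to 69.4%), where the median log2FC was 0.36 against 0.06 among the other 40. Against control, r was 0.39 for MetaICM, −0.18 for 6 days and 0.07 for 3 days. Between 6 and 3 days of ICM r was −0.32 (rho −0.35) across the members and −0.21 (rho −0.25) across all genes tested. In MetaICM against control, 22 of the 41 members of higher GC and 8 of the 40 of lower GC were called higher.

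When a smooth curve against exon GC was removed from each library, an alternative chosen after seeing the data, 28 members rose and 1 fell in MetaICM against control, beside 6.10% and 7.90% of all genes, and 21 of the 28 were also among the original 30. The 9 that lost their call were ATP5F1D, CYC1, NDUFA7, NDUFA8, NDUFA13, NDUFB9, NDUFB10, NDUFS7 and NDUFS8. ATP5F1D then had a log2FC of 0.22 (adjusted p = 0.361, edgeR), NDUFS7 of 0.37 (adjusted p = 0.102) and NDUFS8 of 0.52. The median log2FC of the members was 0.51. After 3 days 5 members rose and 0 fell (9.01% and 13.4% of all genes), and after 6 days 15 rose and 1 fell (13.6% and 17.6%). Between 6 and 3 days ATP5MC1 rose and 0 fell (3.20% and 4.29%), and between MetaICM and 6 days 4 rose (COX5A, COX6B2, NDUFA5 and NDUFS6) and 0 fell (14.0% and 10.8%). In that last comparison ATP5F1D, at 69.4% GC, had a log2FC of 0.13 (adjusted p = 0.445, edgeR) in place of 0.73. NDUFS7 (68.2% GC) had 0.04 in place of 0.62 and NDUFB7 (64.9% GC) 0.06 in place of 0.55. NDUFS6, at 53.9% GC, kept 0.74 (adjusted p = 0.00035, edgeR), and SDHC, at 42.4% GC, kept −0.34 (adjusted p = 0.0014).

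**Figure D5:**
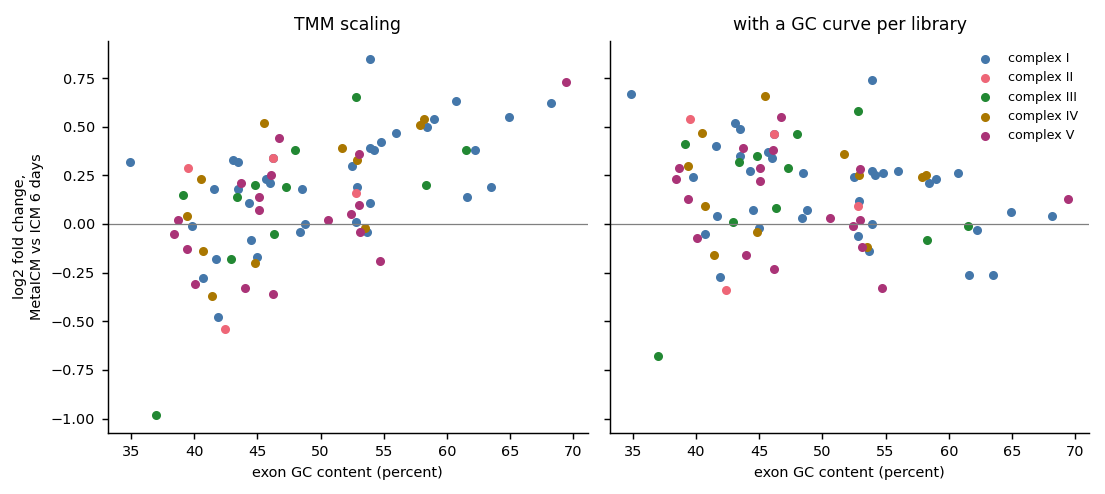
Each point is a member, coloured by complex, with exon GC content in percent on the x axis and the log2FC of MetaICM against 6 days of ICM on the y axis, with the usual TMM scaling (left) and with a GC curve removed from each library (right). COX6B2 (log2FC 2.92) is left out for scale. With TMM scaling r is 0.49 over all 81 tested members, COX6B2 included. ATP5F1D, the rightmost point, moves from 0.73 on the left to 0.13 on the right.

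Genes of the same pathway that the name rule does not cover are few per list. Their counts stand beside 8.85%, 13.3% and 7.41% of all genes called higher after 3 days, 6 days and in MetaICM. The shares of all genes called lower were 13.2%, 17.2% and 8.99%. Among 9 further subunits and associated proteins, of which 8 were tested, 2 rose after 3 days, 2 rose and 1 fell after 6 days, and 4 rose in MetaICM. ATP5IF1, the inhibitor of ATP synthase, had 8.87 and 8.27 CPM in control, 16.1 and 12.3 CPM after 3 days, 15.6 and 14.6 CPM after 6 days, and 18.8 and 19.3 CPM in MetaICM. It was called in each, with log2FC of 0.72, 0.80 and 1.13 (adjusted p = 0.0173, 0.00279 and 0.000877, edgeR). HIGD2A, a factor of complex III and IV supercomplexes, also rose in each, by 0.80, 0.84 and 0.75. NDUFA4L2, the paralog of NDUFA4 known from low oxygen, had 3.27 and 2.87 CPM in control, 1.40 and 1.22 CPM after 6 days and 3.32 and 3.32 CPM in MetaICM. It fell after 6 days by a log2FC of −1.24 (adjusted p = 0.00695, edgeR) and was 1.33 higher in MetaICM than after 6 days (adjusted p = 0.000209). COX4I1 was not called, with log2FC of 0.18, 0.34 and 0.51, and COX4I2, its form in lung and low oxygen, had 0 to 2 counts per library. NDUFAB1, the mitochondrial acyl carrier protein that also sits in complex I, rose in MetaICM by 0.67 against control and by 0.85 against 6 days (adjusted p = 0.0324 and 8.7e-05, edgeR).

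Assembly factors build the complexes without staying in them. Of 18 factors of complex I, 2 rose after 3 days (11.1%, near the 8.85% of all genes), 5 after 6 days (27.8%, beside 13.3%) and 3 in MetaICM (16.7%, beside 7.41%), and 0 fell. NDUFAF1 had 12 and 8.68 CPM in control, 18.6 and 16 CPM after 3 days, 24.0 and 24.2 CPM after 6 days and 12.9 and 14 CPM in MetaICM. It rose by a log2FC of 1.19 after 6 days (adjusted p = 0.000346, edgeR), was 0.35 in MetaICM, and was lower in MetaICM than after 6 days by −0.85 (adjusted p = 7.71e-07). TIMMDC1 rose by 0.96 after 6 days, and NDUFAF3 and DMAC1 rose in MetaICM by 0.76 and 0.73. Of 22 factors of complex IV, 2 rose after 3 days (9.09%), 4 of 21 tested after 6 days and 2 in MetaICM (9.09%), near the shares of all genes at 3 days and in MetaICM. COA6, a copper chaperone, had 6.85 and 5.0 CPM in control, 15.9 and 14.4 CPM after 6 days and 5.01 and 5.47 CPM in MetaICM. Its log2FC was 1.07 after 3 days, 1.33 after 6 days (adjusted p = 0.000344, edgeR) and −0.21 in MetaICM, and MetaICM lay below 6 days by −1.53 (adjusted p = 1.09e-08).

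Of 10 factors of complexes II and III, 1, 2 and 1 rose after 3 days, 6 days and in MetaICM, among them UQCC1 after 3 days (0.61) and 6 days (0.79), and SDHAF1 after 6 days (0.98) and in MetaICM (1.58, adjusted p = 0.00633, edgeR), which had 10 to 79 counts per library. Of 4 factors of complex V, ATPAF2 rose after 3 days by 0.66 and no other call was made against control. Among 14 enzymes of the tricarboxylic acid cycle, 1 rose after 3 days (IDH3G, 0.68), 1 after 6 days (OGDH, 0.61) and 2 in MetaICM (IDH3G, 0.66, and SUCLG1, 0.62). Their medians were 0.09, 0.16 and 0.18.

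The 17 regulators of mitochondrial biogenesis had median log2FC of −0.08, −0.23 and −0.14. In each comparison with control 1 of them fell, PPARGC1A, which encodes the coactivator PGC-1alpha, and only TFB1M rose, after 3 and 6 days. Each such call was 5.88% of the list, below the shares of all genes called in that direction. All genes called lower were 13.2%, 17.2% and 8.99%, and those called higher at 3 and 6 days 8.85% and 13.3%. PPARGC1A was low, with 1.73 and 1.64 CPM in control (29 and 20 counts), 0.279 and 0.532 CPM after 3 days, 0.70 and 0.212 CPM after 6 days, and 0.546 and 0.175 CPM in MetaICM. All treated libraries were below control, and its log2FC was −2.11, −1.88 and −2.26 (adjusted p = 0.00598, 0.0113 and 0.0092, edgeR). TFB1M, a methyltransferase of mitochondrial ribosomal RNA, had 18.3 and 16.1 CPM in control, 33.3 and 34.1 CPM after 6 days and 18.6 and 19.5 CPM in MetaICM, a log2FC of 0.95 after 6 days (adjusted p = 0.000332, edgeR) and 0.13 in MetaICM.

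NRF1 had 25.5 and 23.7 CPM in control, 17.9 and 19.7 CPM after 3 days, 15.5 and 18.8 CPM after 6 days, and 16.9 and 17.6 CPM in MetaICM. These were below control in every treated library, with log2FC of −0.40, −0.53 and −0.53 that did not reach the cutoff. TFAM, which packages mitochondrial DNA, had log2FC of −0.44, −0.56 and −0.13, GABPA of −0.01, 0.11 and −0.09, and ESRRA of 0.42, 0.29 and 0.43. MYC had 83.6 and 54.1 CPM in control and 45.9 to 57.5 CPM in the treated libraries, with log2FC of −0.38, −0.55 and −0.42. None of these 4 was called against control. GABPA shares exon bases with ATP5PF. POLRMT, the mitochondrial RNA polymerase, was called only in MetaICM against 6 days, at 0.61 (adjusted p = 1.6e-06, edgeR).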

How the data were processed

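Factory RNA-Seq of IMR90 was analysed in 8 libraries, 2 per condition. The authors aligned paired-end reads to GRCh37 (hg19) with STAR (2.6.0c) and deposited raw counts of read pairs on the exons of each gene from featureCounts (1.6.3), per the file headers without regard to strand and without pairs on several genes. Intronic counts were not analysed here.

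Pairs of conditions (4 libraries per fit) were tested with edgeR (4.0.16, R 4.3.3): TMM, filterByExpr at a count minimum of 10, the quasi-likelihood test and Benjamini-Hochberg adjustment over all genes. CPM used TMM factors over all 8 libraries. Fits were tested on simulated data. Alternatives were DESeq2 (1.42.0), its size factors, library totals, other filters, 1 fit of all libraries, a replicate block, an adjusted p of 0.01, a GC curve and each library left out. The members and lists were chosen with earlier results of these data known. Named in full are the 3 called members of largest change in each direction per comparison (libraries not overlapping, at least 10 counts per library in the higher group), the most abundant member of each complex, the SDH genes, paralog pairs, 6 regulators and up to 2 genes of each other list. Others were chosen after their values were seen. Figures used matplotlib (3.10.9). The values of 1 member are not reported here, though it is in the counts and medians.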

Additional observations from a re-analysis of the deposited data

Results flagged for a closer look

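In the direct comparison of 6 with 3 days of ICM, which is also the difference between their changes against control, 8 members were higher after 6 days at an adjusted p under 0.05 in edgeR's quasi-likelihood test, all with a log2FC short of 0.6. They were ATP5PD (0.47, adjusted p = 0.00601), ATP5MC1 (0.55, adjusted p = 0.00807), ATP5MD (0.42, adjusted p = 0.0148), NDUFA4 (0.43, adjusted p = 0.0182), COX8A (0.38, adjusted p = 0.0328), NDUFV3 (0.32, adjusted p = 0.0407), NDUFC1 (0.51, adjusted p = 0.0432) and COX6C (0.41, adjusted p = 0.0461). Of these, 3 belong to complex IV and 3 to complex V. The 8 were among 80 tested members, and 1531 of all 15845 genes tested were higher at that adjusted p, a share near that of the members. With a GC curve, NDUFA4 and COX6C no longer reached it (adjusted p = 0.0945 and 0.149, edgeR). NDUFV3 and NDUFC1 then reached it narrowly, at 0.0484 and 0.0486. With 2 libraries per condition, no test for an outlying library was possible.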

How the results depend on the processing

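Of the member counts and medians over all members, 112 of 125 values under an alternative kept their direction and stayed near the reported value. The number of members called after 3 days was 7 with library totals in place of TMM, which moved the share of all calls that were higher from 40.2% to 50.3%, and 17 in MetaICM against control at an adjusted p under 0.01. With a GC curve it was 1 for 6 against 3 days and 4 for MetaICM against 6 days. With each library left out, counts ranged from 1 to 14 after 3 days, 10 to 27 after 6 days, 0 to 4 for 6 against 3 days, 5 to 41 in MetaICM and 1 to 11 for MetaICM against 6 days, where a lone library is assumed to vary like the others. The median log2FC of complex III between 6 and 3 days turned to −0.01 with library totals and −0.04 with a GC curve, and ranged from −0.15 (without 3-day replicate 2; −0.03 without 6-day replicate 1) to 0.06 with each library left out. That of complex I ranged from −0.02 (without 3-day replicate 2) to 0.15, and that of complex V between MetaICM and 6 days from −0.04 (without MetaICM replicate 2) to 0.06. The causes were not tested. Replicate numbers are shared only as numbers: the deviations of same-numbered libraries correlated at 0.195, 0.0723, 0.0939, −0.0415 and 0.0294 in the 5 comparisons, and with the number as a replicate block 6, 17, 0, 30 and 7 members were called.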

Other observations

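Ribosomal protein genes offer a second large mitochondrial set and a cytosolic counterpart. Of 77 tested genes for proteins of the mitochondrial ribosome, which translates the subunits encoded in mitochondrial DNA, 8 rose after 3 days of ICM (10.4%, near the 8.85% of all genes called higher), 19 after 6 days (24.7%, beside 13.3%) and 18 in MetaICM (23.4%, beside 7.41%), and 0 fell, with medians of 0.27, 0.34 and 0.44 on the log2 scale. MRPL14 rose by 1.10 after 3 days and 1.29 after 6 days (adjusted p = 0.00172 and 0.000304, edgeR) and was lower in MetaICM than after 6 days by −0.77 (adjusted p = 4.82e-06), while MRPL36 rose by 1.12 after 3 days and 1.2 in MetaICM (adjusted p = 0.00638 and 0.00639). Between MetaICM and 6 days 3 were higher, among them MRPL11 (0.83) and MRPL23 (0.65). The shares called higher and lower there were 3.9% and 1.3%, below the 15.7% and 12.0% of all genes.

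Of the genes for cytosolic ribosomal proteins, 0 of 81 tested rose and 2 fell after 3 days, 0 of 82 rose and 2 fell after 6 days, and 2 of 82 rose in MetaICM, with medians of −0.10, 0.07 and 0.27. The shares that fell after 3 and 6 days (2.47% and 2.44%) stand beside 13.2% and 17.2% of all genes, and the 2.44% that rose in MetaICM beside 7.41%. Both that fell were paralogs of standard subunits, RPL39L (−1.42 and −1.72, adjusted p = 0.00318 and 0.000764, edgeR) and RPL22L1 (−1.25 and −0.83, adjusted p = 0.000288 and 0.00135). RPS27L, a paralog known as a p53 target, and RPS15 rose in MetaICM by 0.72 and 0.68.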
